A study of Mus musculus with 30 samples.

Results

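The genes described here encode the proteins of the cytosolic ribosome. They were taken by name from the liver count tables of the series: symbols that start with Rpl or Rps, go on with a number and end there or with a single a or x, together with Rplp0, Rplp1, Rplp2 and Rpsa, where the summed count over the 18 time-course libraries was at least 200. The rule found 76 genes of the 54429 in the time-course table, and no gene that matched the name fell short on counts. The same 76 genes were found by Ensembl identifier among the 55471 genes of the genotype table. They were 30 genes of the small subunit and 46 of the large subunit, and all 76 passed the filter on low counts in both tables.

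Each ribosome carries a single copy of most of these proteins, so a cell needs them in near equal numbers, and their mRNAs are among the most abundant in any tissue. Most of these mRNAs begin with a run of pyrimidines, the terminal oligopyrimidine (TOP) motif, through which the kinase complex mTORC1 and the protein Larp1 set how actively they are translated and how long they last. In liver, feeding and the clock are known to drive a daily wave of ribosome production, and hepatocytes use that capacity to export albumin and other plasma proteins.

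The series measured polyA RNA of mouse liver by RNA-seq in 2 experiments, asking how ageing and the transcription factor Egr-1 bear on daily liver metabolism. The time course held 18 libraries from wild-type male C57BL/6J mice of 2, 6 and 12 months, with 1 library at each age and each of 6 zeitgeber times (ZT1, 5, 9, 13, 17 and 21, in hours after lights on). The genotype experiment held 12 libraries from wild-type (WT) and liver-specific Egr-1 knockout (KO) mice of 2, 6 and 12 months. For each age and genotype there was 1 library at the time of the highest (H) and 1 at the time of the lowest (L) Egr-1 protein. By the study's methods H and L were ZT13 and ZT17 at 2 months, ZT9 and ZT21 at 6 months, and ZT5 and ZT21 at 12 months, so age and time of day were mixed in that experiment. The KO mice carried floxed Egr1 alleles and Cre under the albumin promoter, which is active in hepatocytes, so the other cells of the liver kept the gene. These lines were made on a 129 background and backcrossed to C57BL/6J, and their littermates served as WT. A legend of the study speaks of several mice in each group of the genotype experiment, but whether their RNA was combined is not stated in the sources used here. With 1 library per condition, time points stood in for replicates of an age and pairs of libraries for replicates of a genotype, and p-values measure only the spread between them.

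Total counts ranged from 13375377 to 16557378 per library in the time course and from 13747706 to 21748956 in the genotype experiment. The 8 hepatocyte markers were detected in every library and summed to 77150 to 118800 CPM (counts scaled to the size of the library) in the time course. In the genotype table, the mean of the 6 H libraries matched the mean of the 6 L libraries gene by gene. Among 2790 genes whose mean reached 50 CPM, 99.6% differed by less than 0.02 on the log2 scale between H and L, against 12.7% between KO and WT and 6.33% of 2338 genes between 12 and 2 months in the time course. No source states an adjustment between H and L, and H was not compared with L here. Egr1 itself was lower in KO in 4 of 6 pairs, and the fitted log2 difference was -1.76 (SE 0.79, unadjusted p = 0.0504, adjusted p = 0.313 in edgeR's quasi-likelihood test). Its count was 50 in the library labelled WT and 41 in that labelled KO for 2 months H, 21 and 116 for 2 months L, 1332 and 124 for 6 months H, 401 and 84 for 6 months L, 120 and 125 for 12 months H, and 864 and 23 for 12 months L. The targeted gene was thus higher under the KO label in the 2-month L pair and nearly equal in the 12-month H pair, and the genotype libraries are named below as labelled.

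The 76 genes together took 2.04% to 2.61% of all counts at 2 months, 2.31% to 2.89% at 6 months, and 2.91% to 3.67% at 12 months. Every 12-month library was thus above every younger one, although the lowest 12-month library, at ZT13, lay next to the highest 6-month library, also at ZT13. The small subunit genes took 0.845% to 1.12% at 2 months and 1.24% to 1.61% at 12 months. The large subunit genes took 1.19% to 1.501% and 1.67% to 2.08%, so neither subunit overlapped between these ages. In the genotype experiment the 76 genes took 2.31% to 3.16% of the counts in libraries labelled WT and 2.33% to 2.80% in those labelled KO. These are shares of the RNA of whole liver, where a change in the mix of cells and a change in RNA per cell cannot be told apart.

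**Figure D1:**
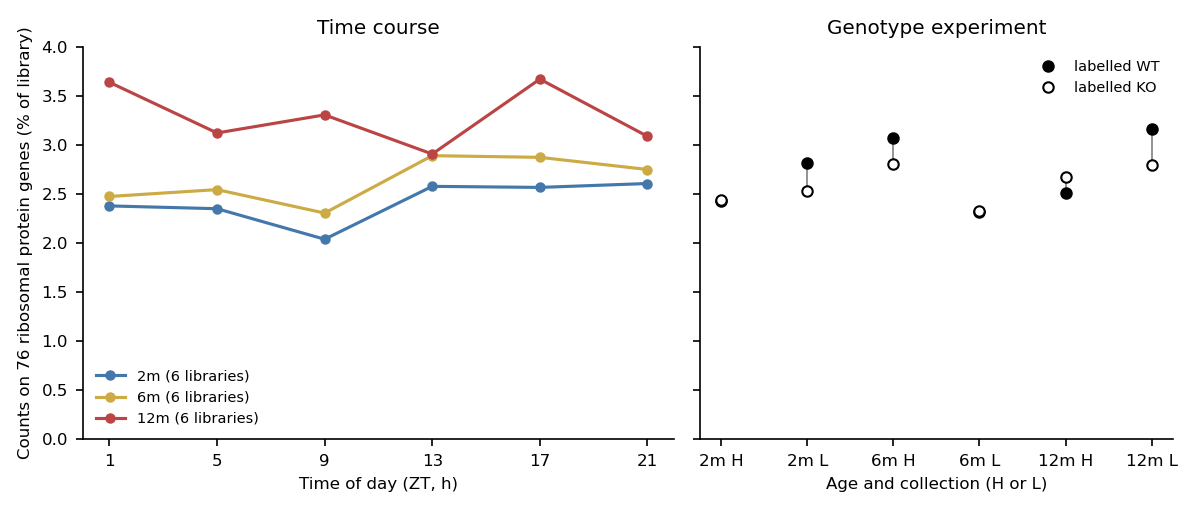
Share of all counts on the 76 ribosomal protein genes (% of the library) against time of day in the time course, with 1 point per library, and by age and collection in the genotype experiment, where a line joins the libraries labelled WT and KO of a pair. The 12-month libraries, at 2.91% to 3.67%, lie above all libraries of 2 and 6 months.

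Per kilobase of the principal transcript, the highest level was that of Rplp1, an acidic protein of the stalk that recruits translation factors, with a median of 1791 CPM per kb over the 18 libraries. Rpl41, the shortest ribosomal protein with a coding sequence of 75 bases, was the third in that order at 1603 CPM per kb. The stalk base protein gene Rplp0, often used as a reference gene in liver, had 490 CPM per kb and rank 28. Rps28 had 102 CPM per kb and rank 70, and Rps10 was last at 2.07 CPM per kb, with 5 to 32 reads in the time-course libraries. Some ribosomal protein genes overlap other genes in the annotation. In GENCODE M21, 91.6% of the exon bases of Rps10 lay in another gene on the same strand, as did 71.5% for Rpl24 and 59.3% for Rpl13a.

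Nearly all of these genes have processed copies in the mouse genome. For 73 of the 76, at least 1 other annotated gene held a transcript with at least 95% identity over at least 80% of the coding sequence. The median number of copies was 5.5, and Rpl21 had 58. How the authors' counting treated reads that match a gene and its copies is not given in the sources used here, so single levels are uncertain for genes with many copies. Rps10, Rpl24, Rpl7a and Rpl21 followed the rest least. Over the 18 libraries their log2 level had a Pearson r with the mean of the other 75 of 0.23, 0.25, 0.26 and 0.28. The median r of the 76 genes was 0.85, and 47 of them were above 0.8. Those points share libraries, depth and the 3 ages, so r is given as a description.

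RefSeq promoter windows on GRCm38.p6 were matched by symbol for 56 of the 76 genes. Within 25 bases before to 50 after an annotated start, 45 of the 56 (80.4%) held a run of at least 8 pyrimidines, against 30.4% of 27025 genes. The windows below show the longest run of C and T in capitals for genes the results turn on, read 5′ to 3′ on the strand of the gene: genes that rose with age (Rpl41, Rpl36a, Rps27, Rps23, Rpl11, Rps6, Rps28), genes that did not pass the test (Rplp0, Rpsa), and the gene with the smallest p between genotypes (Rpl12), which also rose with age.
Rpl41 (chr10:128549119-128549148, minus strand): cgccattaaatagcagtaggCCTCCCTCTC
Rpl36a (chrX:134585672-134585701, plus strand): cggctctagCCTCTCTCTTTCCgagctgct
Rps27 (chr3:90213632-90213661, minus strand): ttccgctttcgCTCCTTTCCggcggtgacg
Rps23 (chr13:90923142-90923171, plus strand): tgggtccttcctgcaCCTCCTCTCTCTTTC
Rpl11 (chr4:136053358-136053387, minus strand): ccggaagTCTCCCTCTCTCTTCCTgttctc
Rps6 (chr4:86857349-86857378, minus strand): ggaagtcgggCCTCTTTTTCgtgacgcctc
Rps28 (chr17:33824567-33824596, minus strand): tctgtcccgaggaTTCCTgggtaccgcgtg
Rplp0 (chr5:115559466-115559495, plus strand): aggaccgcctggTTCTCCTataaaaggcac
Rpsa (chr9:120127774-120127803, plus strand): tccggccgcccgTCCTTTCgcgctacccgg
Rpl12 (chr2:32961732-32961761, plus strand): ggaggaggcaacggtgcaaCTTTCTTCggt
The runs were 17 bases in Rpl11, 15 in Rps23, and 13 in Rpl36a, and those of Rps23 and Rpl41 ended with the searched window, so they may be longer. Rplp0 and Rpsa held runs of 7, and Rps28 of 5. Of genes not shown, Rplp2 and Rpl13a, which did not pass the test of age either, held runs of 10 and 14. Rps3 and Rps16, which rose with age, held runs of 5.

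Other motifs were searched on both strands of the whole window of 250 bases before to 50 after the start. CCGGAAGT, a letter string bound by factors of the ETS family, was in 11 of the 56 genes (19.6%) and in 4.31% of all genes. GCGTGGGCG or GCGGGGGCG, the letters Egr-1 is known to bind, were in 6 of the 56 (10.7%) and in 3.93% of all genes. The 6 genes were Rpl7a, Rpl12, Rpl27a, Rps2, Rps13 and Rps24. CACGTG, the E-box of the clock factors, was in 6 of the 56 (10.7%) and in 8.09% of all genes. A match is only a run of letters and was not tested as a site.

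Ribosomal protein genes were higher at 12 months than at 2 months almost throughout. Of the 76 genes, 46 rose and 0 fell at an adjusted p under 0.05 in edgeR's quasi-likelihood test with time of day as a block, where 11.9% of the 13361 genes tested were called, 6.56% higher and 5.36% lower. The median log2 difference of the 76 genes was 0.42, a fitted value, against -0.0015 over all genes tested, and 75 of 76 were positive. Rpl21, with its 58 copies, was the exception at -0.08 (SE 0.33, adjusted p = 0.904). At an unadjusted p under 0.05, 66 were higher and 0 lower, where 13.8% of all genes were higher. In 47 of 76 genes the 12-month library was above the 2-month library at all 6 time points, against 9.93% of all genes. In 17 of 76 all 6 libraries of 12 months lay above all 6 of 2 months, against 2.22% of all genes.

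**Figure D2:**
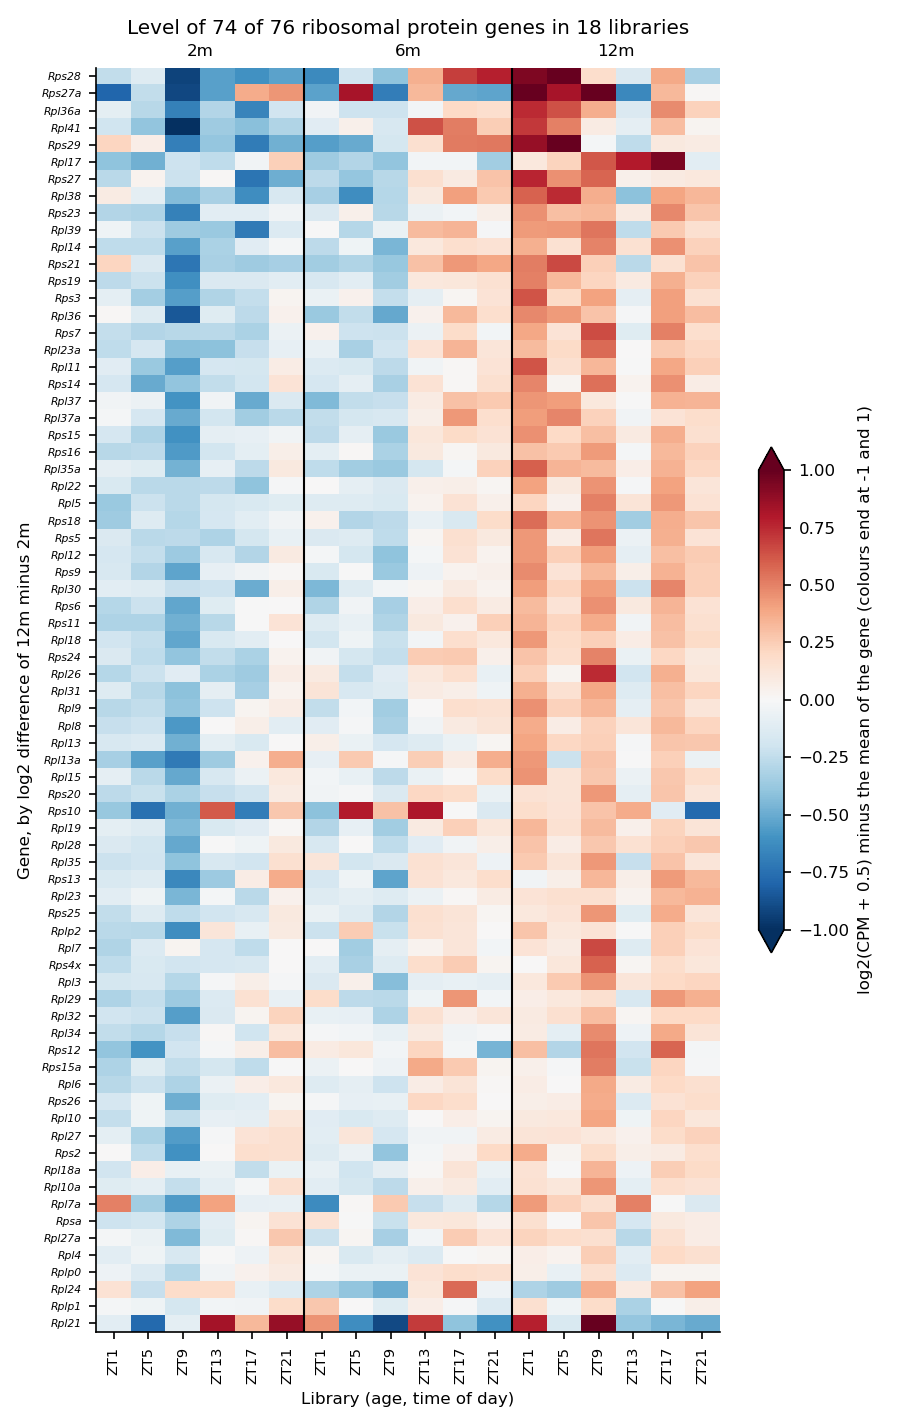
Level of 74 of the 76 genes in the 18 time-course libraries, as log2(CPM + 0.5) minus the mean of that gene; rows are ordered by the log2 difference of 12 minus 2 months, and colours end at -1 and 1. The 12-month columns are mostly above 0 except at ZT13, and the 2-month column at ZT9 is the lowest, with a median of -0.43 over the 76 genes.

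The difference varied with the time of day. Between 12 and 2 months the median log2 difference of the 76 genes was 0.52 at ZT1, 0.39 at ZT5, 0.79 at ZT9, 0.12 at ZT13, 0.47 at ZT17 and 0.14 at ZT21. All 76 genes were higher at ZT9, while 55 were higher at ZT13 and 59 at ZT21. The ZT9 library of 2 months was the lowest of the 18 for these genes, with a median of -0.43 from each gene's mean. That of 12 months was the highest, with a median of 0.36. The share of mitochondrially encoded counts was 11.3% and 12.6% in those 2 libraries, the highest of their ages, and its part in the result was not tested. Without ZT9, 22 genes were called instead of 46, and the median was 0.33. Without ZT1 29 and without ZT17 30 genes were called. The share of all genes called without these time points is not given, so these counts show only how the calls depend on the setting. With library totals in place of TMM scaling, 62 of the 76 genes were called, and of all genes 1193 were higher and 413 lower, against 877 and 716.

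Some markers of other cells differed between ages too. The summed level of 6 B or plasma cell markers was 12.7 to 21.98 CPM at 2 months, 13.8 to 18.8 CPM at 6 months, and 48.0 to 330 CPM at 12 months, without overlap. The summed level of 5 stellate cell markers was 263 to 318 CPM at 2 months and 363 to 512 CPM at 12 months, and that of 5 cholangiocyte markers was 30.5 to 43.6 and 17.96 to 29.9 CPM, both without overlap. At 6 months the cholangiocyte markers summed to 36.0 to 146 CPM. Between 2 and 12 months the 5 T or NK cell markers, at 1.70 to 2.58 and 1.65 to 3.69 CPM, overlapped. So did the hepatocyte markers (91020 to 101300 and 100400 to 118800 CPM) and the dividing cell markers (6.23 to 8.03 and 3.67 to 6.46 CPM). The Kupffer cell, sinusoidal endothelium and erythroid sums overlapped as well. The part of these cells in the ribosomal protein levels was not tested.

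Small subunit genes rose in 18 of 30 cases, with a median log2 difference of 0.46. The largest called difference belonged to Rps28, a protein at the mRNA exit side of the small subunit. Its level was 16.1, 21.1 and 28.3 CPM at 2 months (lowest, median and highest of 6 libraries) and 24.7, 37.8 and 79.6 CPM at 12 months. Most 12-month libraries were above those of 2 months, but the groups overlapped. The log2 fold change was 0.98 (SE 0.27, adjusted p = 0.0275). The call was lost without ZT5, ZT9 or ZT17, where the log2 fold change was 0.84, 0.94 and 0.98. Rps23, a protein of the decoding centre, went from 184, 256 and 286 CPM to 312, 364 and 410 CPM, and the groups did not overlap. Its log2 fold change was 0.58 (SE 0.10, adjusted p = 0.00132), the smallest adjusted p of the 76 genes. Rps27, a zinc-binding protein, went from 128, 179 and 218 CPM to 220, 260 and 361 CPM, also without overlap. Its log2 fold change was 0.62 (SE 0.17, adjusted p = 0.0239), and the call was lost without ZT1, ZT9 or ZT17.

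Rps6, the protein of the small subunit that S6 kinase phosphorylates downstream of mTORC1, had 356, 454 and 511 CPM at 2 months and 544, 599 and 699 CPM at 12 months. Its 12-month libraries all lay above those of 2 months, and the log2 fold change was 0.45 (SE 0.11, adjusted p = 0.0146). Without ZT1 or ZT9 it was 0.42 and 0.33 and no longer called. Rpsa, the laminin receptor homologue at the mRNA exit, had 641, 718 and 878 CPM at 2 months and 706, 841 and 959 CPM at 12 months, with overlap. Its log2 fold change was 0.18 (SE 0.10, adjusted p = 0.273). Rps27a, which is made as a fusion with ubiquitin, spread widely, with 161, 231 and 411 CPM against 193, 458 and 742 CPM. The 12-month library was higher at 3 of 6 time points, and the log2 fold change of 0.78 had an SE of 0.35 and an adjusted p of 0.164.

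Large subunit genes rose in 28 of 46 cases, with a median log2 difference of 0.38. Rpl36a, encoded on the X chromosome, had 127, 166 and 189 CPM at 2 months and 183, 270 and 341 CPM at 12 months. Its ranges touched only between the lowest 12-month and the highest 2-month libraries, and the log2 fold change was 0.76 (SE 0.13, adjusted p = 0.00163). Rpl41 had 352, 553 and 623 CPM at 2 months and 672, 821 and 1169 CPM at 12 months, without overlap. Its log2 fold change was 0.72 (SE 0.15, adjusted p = 0.00623). Rpl5 and Rpl11, which join the 5S rRNA in a particle that also restrains the p53 ligase Mdm2, both rose. Rpl5 went from 387, 437 and 460 CPM to 516, 567 and 709 CPM without overlap (log2 fold change 0.47, SE 0.09, adjusted p = 0.00346). Rpl11 went from 367, 478 and 567.7 CPM to 537, 657 and 835 CPM with overlap (log2 fold change 0.52, SE 0.11, adjusted p = 0.00494).

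Of the stalk proteins, Rplp0 had 545, 645 and 709 CPM at 2 months and 602, 676 and 740 CPM at 12 months, and it was higher at 3 of 6 time points. Its log2 fold change was 0.07 (SE 0.09, adjusted p = 0.644). Rplp1 had 800, 886 and 1026 CPM and 724, 922 and 1029 CPM, and the libraries of the 2 ages overlapped nearly throughout. Its log2 fold change was 0.03 (SE 0.10, adjusted p = 0.893). Rplp2 had 85.8, 117 and 143 CPM and 132, 148 and 160 CPM, with a log2 fold change of 0.33 (SE 0.11, adjusted p = 0.0543). Of the 4 genes of the stalk and its base only Rpl12 was called, at 0.45 (SE 0.11, adjusted p = 0.0126). Whether the stalk genes differ from the others was not tested. Rpl13a, another gene used as a reference, had 12.9, 16.7 and 27.5 CPM and 18.3, 23.3 and 28.9 CPM, with a log2 fold change of 0.38 (SE 0.15, adjusted p = 0.116).

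**Figure D3:**
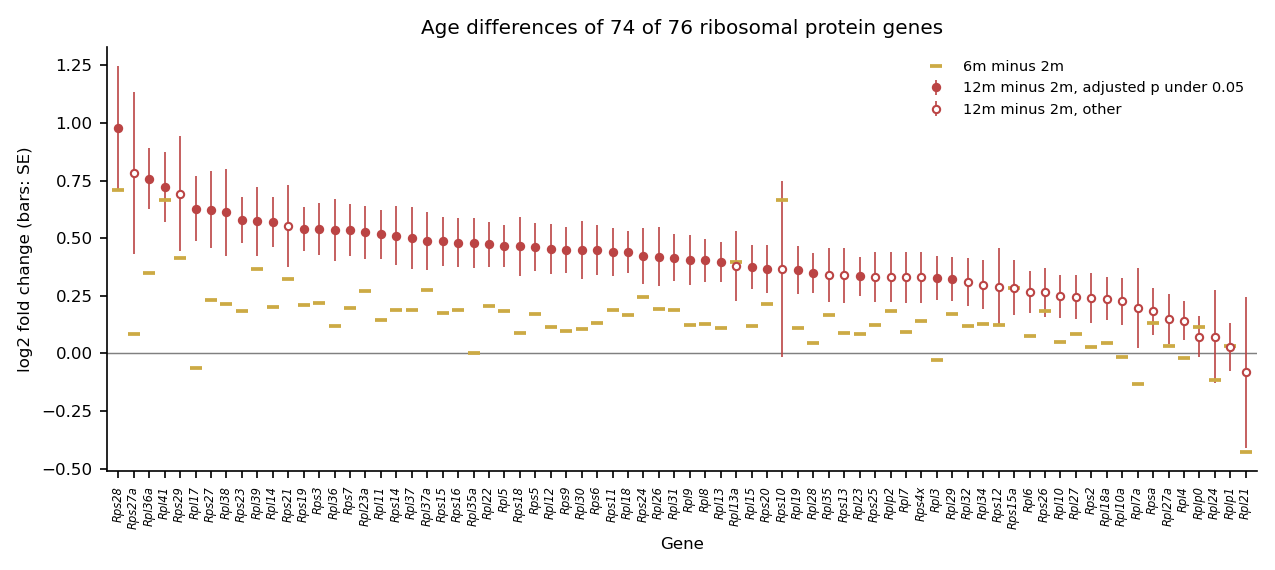
Log2 fold change of 12 minus 2 months for 74 of the 76 genes (points, with SE as bars; filled where the adjusted p was under 0.05) and of 6 minus 2 months (dashes). Of the points, 44 are filled and all of those are above 0; Rplp0, Rpl24, Rplp1 and Rpl21 close the order near 0.

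Other lists drawn from the 76 genes gave the following counts, and differences between lists were not tested. For comparison, 60.5% of all 76 genes and 6.56% of all genes tested rose. Of 8 proteins that line the exit tunnel or its rim, 6 rose, with a median of 0.42. Of 3 proteins at mRNA entry and decoding, 2 rose, with a median of 0.54, and of 3 at the mRNA exit 1 rose, Rps28, with a median of 0.27. Of 11 genes mutated in Diamond-Blackfan anaemia, an inherited failure of red cell production, 9 rose, with a median of 0.47.

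The rise was also called between 6 and 12 months, in fewer genes. Of the 76 genes 16 rose and 0 fell, where 16.3% of all genes were called, 8.13% higher and 8.14% lower, and the median was 0.25. In 4 genes (Rpl3, Rpl28, Rps9, Rps23) the 12-month libraries all lay above those of 6 months, against 2.07% of all genes. In 18 genes the 12-month library was higher at all 6 time points, against 8.29%. The count of 16 fell to 3 without ZT9, 4 without ZT1 and 8 without ZT5, and to 7 without the time-of-day block. It was 44 with library totals, where 1709 genes were higher and 650 lower, against 1086 and 1088. For the fits without a time point or the block, the share of all genes called is not given. Those counts show only how the calls depend on the setting. Between 2 and 6 months the median was 0.14 and 1 gene was called, where 13.7% of all genes were called, 7.19% higher and 6.47% lower. In 21 genes the 6-month library was higher at all 6 time points, against 8.94%. These 3 contrasts share libraries, so their values are given side by side only.

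The gene called between 2 and 6 months was Rpl41, at 641, 796 and 1112 CPM at 6 months. All 6-month libraries lay above those of 2 months, in 1 of 76 genes against 2.54% of all genes, and the log2 fold change was 0.66 (SE 0.15, adjusted p = 0.0094). From 6 to 12 months its log2 fold change was 0.06 (SE 0.15, adjusted p = 0.836). Rpl17, a protein at the exit of the peptide tunnel, had 109, 130 and 180 CPM at 2 months, 116, 122 and 150 CPM at 6 months, and 142, 206 and 293 CPM at 12 months. It had a log2 fold change of 0.69 from 6 to 12 months (SE 0.14, adjusted p = 0.00359) and of -0.06 from 2 to 6 months. Rps23, Rpl11 and Rpl14 rose by 0.40, 0.37 and 0.37 from 6 to 12 months, with adjusted p from 0.0121 to 0.0302.

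Genes whose products work with the ribosome did not all move alike. Of 12 ribosomal proteins that the name rule leaves out 9 were tested, and 5 rose from 2 to 12 months, with a median of 0.37. They included Rps27l, a close relative of Rps27, at 0.49 (SE 0.11, adjusted p = 0.0107), and Rps3a1 at 0.40 (SE 0.10, adjusted p = 0.0184). Of 17 translation factors known for a TOP motif 6 rose, with a median of 0.28. Among them were Tpt1 at 0.44, the initiation factor gene Eif3h at 0.40, and the elongation factor gene Eef1a1 at 0.38 (SE 0.12, adjusted p = 0.0416). Of 28 ribosome biogenesis genes, which process rRNA and assemble subunits, 0 were called in either direction in edgeR's test, 5 were lower at an unadjusted p under 0.05, and the median was -0.04. Of 20 genes of the mTORC1 pathway 1 fell, Sesn3, an inhibitor of mTORC1, at -0.67 (SE 0.13, adjusted p = 0.00285). In the genotype experiment Sesn3 went the other way from 2 to 12 months, at 0.58 (SE 0.11, adjusted p = 0.0083 in edgeR's test). Eif4ebp1 of the same list was lower there, at -0.50 (SE 0.11, adjusted p = 0.014). Age and time of day were mixed in that experiment.

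Proteins of the other ribosome of the cell and of its respiratory chain gave a contrast in count. Of 76 mitochondrial ribosomal protein genes 1 rose, beside 6.56% of all genes, with a median of 0.03. Of 72 nuclear genes of oxidative phosphorylation 2 rose and 0 fell, with a median of 0.04. From 6 to 12 months 25 of these 72 rose, beside 8.13% of all genes, and from 2 to 6 months 21 fell, beside 6.47%. Of 13 mitochondrially encoded genes 1 fell from 2 to 12 months, mt-Nd5 at -0.42.

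**Figure D4:**
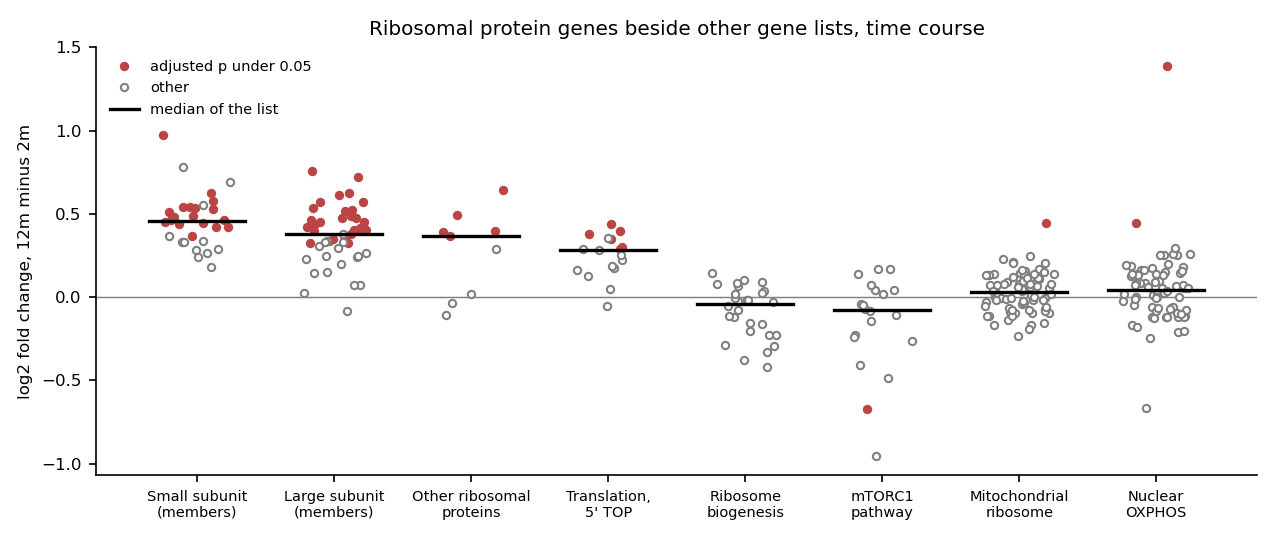
Log2 fold change of 12 minus 2 months for each gene of 8 lists (1 point per gene, filled where the adjusted p was under 0.05; the bar is the median of the list). The medians of the small and large subunit genes are 0.46 and 0.38; those of ribosome biogenesis and mitochondrial ribosomal protein genes are -0.04 and 0.03.

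Ribosomal protein mRNAs are short, and in the time course short genes as a class were higher at 12 months. Genes other than the 76 with a coding sequence under 300 bases had a median log2 difference of 0.13 (n = 252), and those of at least 1300 bases of -0.05 (n = 6478). Within each class of length the ribosomal protein genes were above the rest. For coding sequences under 300 bases the medians were 0.61 (n = 9) against 0.13, from 300 to 450 bases 0.37 (n = 27) against 0.10, from 450 to 600 bases 0.44 (n = 19) against 0.05, and from 600 to 1300 bases 0.33 (n = 21) against 0.02. Among the 76 genes, shorter ones differed more between 12 and 2 months, with a Spearman rho of -0.39 across genes. The rho was -0.43 from 2 to 6 months and -0.00 from 6 to 12 months, and for the difference between genotypes described below it was 0.35. Genes are not independent replicates, and the rho is a description. The part of RNA quality in this relation was not tested. Of the 22 genes with at most 3 copies and with exons mostly their own, 15 rose, with a median of 0.45. The 3 genes with no copy all rose, with a median of 0.46. Of the 45 genes with a pyrimidine run of at least 8 bases 28 rose, with a median of 0.42, and of the 11 with shorter runs 5 rose, with a median of 0.33.

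Few of these genes were called rhythmic over the day. A cosinor with a 24 h period called 0 of 76 genes rhythmic at 2 months, where 5.13% of all genes were called, 2 at 6 months (4.85% of all genes) and 1 at 12 months (3.63%). A rhythm shared by the 3 ages was called for 1 of 76, against 16.2% of all genes. At an unadjusted p under 0.05 the counts were 9 at 2 months (20.3% of all genes), 13 at 6 months (19.4%) and 7 at 12 months (17.9%). The exact permutation test of the JTK kind, whose smallest p with 6 time points is 0.0333, reached it for 6, 7 and 0 genes at 2, 6 and 12 months, against 8.4%, 7.9% and 6.3% of all genes.

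The gene with the shared rhythm was Rpl29, a heparin-binding protein of the large subunit, with 140, 158 and 200 CPM at 2 months and 161, 197 and 244 CPM at 12 months. The fitted peak was ZT18.8 and the log2 amplitude 0.21 (adjusted p = 0.0446 in edgeR). Rpl17, Rps13 and Rpl15 had small p as well and were not called, with adjusted p from 0.0606 to 0.0803. At 2 months the smallest p belonged to Rpl13a, Rpl27, Rps13, Rps2 and Rpl32, with fitted peaks between ZT19.2 and ZT21.1 and adjusted p from 0.0554 to 0.136.

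At 6 months the 5 smallest p were those of Rpl38, Rps21, Rps29, Rpl37a and Rps28, all with fitted peaks from ZT17.1 to ZT17.5. Rpl38, known for its part in the translation of Hox mRNAs, was called there with an amplitude of 0.51 (adjusted p = 0.0348), and so was Rps21 with 0.48 (adjusted p = 0.0417). At 12 months 4 of these 5 genes were again among the 5 smallest p, with peaks from ZT2.04 to ZT3.76, and Rps29 was called with an amplitude of 0.66 (adjusted p = 0.0302). Rps29 had 148.7 and 191 CPM at ZT1 and ZT5 of 12 months and 67.97 to 86.6 CPM at the other 4 time points. At 6 months it had 55.1 to 71.5 CPM from ZT1 to ZT9, and 90.5 to 117 CPM from ZT13 to ZT21. Its fitted peak was ZT2.69 at 2 months and ZT17.1 at 6 months, neither called in edgeR's test (adjusted p = 0.215 and 0.065), and ZT2.84 at 12 months. The peak thus lay in the dark hours at 6 months and in the light hours at 2 and 12 months. A change of rhythm between 6 and 12 months was not tested. The change of rhythm between 2 and 6 months was called for 0 of 76 genes (0.112% of all genes, 10 of 76 at an unadjusted p under 0.05 beside 10.8%), with the smallest adjusted p at 0.131 for Rps29 and Rpl38. Between 2 and 12 months it was called for 0 of 76 (0.0% of all genes, 4 of 76 at an unadjusted p under 0.05 beside 4.56%). Leaving out single time points ended the calls of Rpl29 at ZT1, ZT9 or ZT17 and left 0 or 1 call at 6 and at 12 months.

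Across the 76 genes the fitted peaks gathered at a like hour at 2 and at 6 months, and were spread more widely at 12 months. Their mean was ZT20.6 at 2 months, ZT17.985 at 6 months and ZT2.80 at 12 months, with a concentration (1 when all peaks coincide, 0 when they spread evenly) of 0.74, 0.79 and 0.42. The median amplitudes were 0.20, 0.17 and 0.11 on the log2 scale. The genes share the same 6 libraries at each age, so these values describe the libraries and were not tested.

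In the genotype experiment, ribosomal protein genes had mostly lower levels after TMM scaling in libraries labelled KO, but none passed the test. At an adjusted p under 0.05 edgeR's quasi-likelihood test with a block for each pair called 0 of 76, where 1.58% of the 13639 genes tested were called. At an unadjusted p under 0.05, 41 of 76 were lower and 0 higher, where 7.49% of all genes were lower. DESeq2 called 3 of 76, and 435 of all 13639 genes. The median log2 difference was -0.20 against -0.01 over all genes, and 75 of 76 were negative. In 21 of 76 the library labelled KO was lower in all 6 pairs, against 4.73% of all genes, and in 0 of 76 all 6 libraries labelled KO lay below all 6 labelled WT, against 0.499%. With library totals in place of TMM scaling the median of all genes was 0.11 and that of the 76 genes -0.07. Of all genes 370 were then called higher and 67 lower, against 107 and 108. As plain shares of counts the 76 genes were higher under KO than WT in 2 months H (2.4357% and 2.4335%). The same held for 6 months L (2.33% and 2.31%) and 12 months H (2.67% and 2.51%). Their share was lower under KO in 2 months L (2.53% and 2.82%), 6 months H (2.80% and 3.07%) and 12 months L (2.80% and 3.16%).

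**Figure D5:**
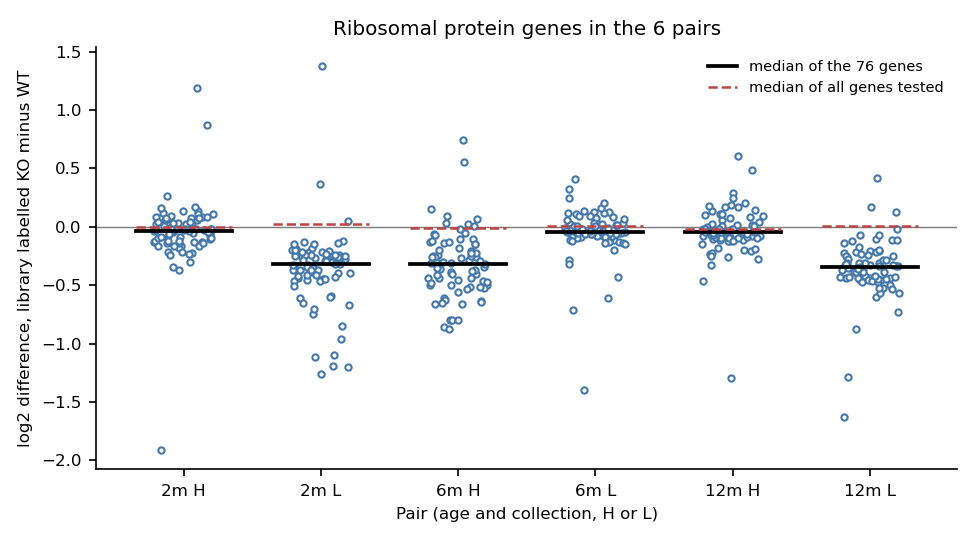
Log2 difference of the TMM-scaled level in the library labelled KO minus that labelled WT in each of the 6 pairs. There is 1 point for each of the 76 genes, with the median of the 76 (solid) and the median of all genes tested (dashed). The medians of the 76 are -0.32 for 2 months L and 6 months H and -0.34 for 12 months L, and between -0.05 and -0.03 in the other 3 pairs.

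The difference was larger in 3 of the 6 pairs. The median over the 76 genes was -0.32 for 2 months L, -0.32 for 6 months H and -0.34 for 12 months L, with 73, 68 and 73 genes lower. It was -0.03 for 2 months H, -0.04 for 6 months L and -0.05 for 12 months H, with 48, 49 and 52 genes lower. In those 3 pairs the library labelled WT was high, with a median of 0.20, 0.34 and 0.33 from each gene's mean over the 12 libraries. The other 3 libraries labelled WT lay at -0.10, -0.16 and -0.07, and the 6 labelled KO between -0.20 and 0.04. In the 2-month L pair, Egr1 had the higher count in the library labelled KO. The 3 pairs at H alone gave a median of -0.14 and the 3 at L alone -0.27. The summed level of the hepatocyte markers was 48620 to 62870 CPM in libraries labelled KO and 72760 to 83320 CPM in those labelled WT, without overlap. Among these markers, Alb alone took 2.81% to 3.58% of the counts under KO and 5.29% to 6.13% under WT. The sum without Alb is not given, so the gap is not a measure of hepatocyte content. The summed level of the 10 Kupffer cell or macrophage markers was 642 to 962 CPM under KO and 530 to 701 CPM under WT. The part of these levels in the result was not tested.

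The smallest p belonged to Rpl12, a protein at the base of the stalk. It had 324 and 294 CPM in the libraries labelled WT and KO of 2 months H, 393 and 290 in 2 months L, 502 and 318 in 6 months H, 299.9 and 283 in 6 months L, 338 and 292 in 12 months H, and 465 and 343 in 12 months L. The library labelled KO was lower each time, in 6 of 6 pairs, and the fitted log2 difference was -0.33 (SE 0.08, adjusted p = 0.0884). Rps24 ranged from 347 to 567.6 CPM in WT and from 318 to 431 CPM in KO. All 6 pairs had the lower level under KO, at a log2 difference of -0.27 (SE 0.08, adjusted p = 0.113). Rps29 ranged from 109 to 226 CPM and from 101 to 129 CPM with the lower level under KO in 5 of 6 pairs and a log2 difference of -0.46 (SE 0.14, adjusted p = 0.143). The ranges of each of these genes overlapped between genotypes. Rplp0, Rplp1 and Rpsa, which did not pass the test of age, had log2 differences between genotypes of -0.15, -0.18 and -0.21 (adjusted p from 0.190 to 0.320), each lower in all 6 pairs.

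The 6 genes with GCGTGGGCG or GCGGGGGCG in the promoter window had a median log2 difference between genotypes of -0.22, from -0.39 for Rpl7a to -0.08 for Rps2. The 50 genes without these letters had a median of -0.18. In 3 of the 6 genes (Rpl12, Rpl27a, Rps24) the library labelled KO was lower in all 6 pairs, as it was in 12 of the 50. The letters were searched in every RefSeq window of a gene (32851 windows of 27025 genes), and no binding was measured here.

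Whether the genotype difference varied with age was asked with a genotype by age term. It called 0 of 76 genes in edgeR's test, where 0.0147% of all genes were called, and 2 of 76 at an unadjusted p under 0.05 beside 3.11%. The 3 smallest p were those of Rpl7a, Rps12 and Rps27, each with an adjusted p of 1.00. Rpl7a, which has processed copies and followed the other genes little, had 124 and 284 CPM in the libraries labelled WT and KO of 2 months H, and 186 and 76.1 CPM in those of 12 months L.

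In the genotype experiment the median age difference was near 0. Between 2 and 12 months, over both genotypes, the median log2 difference of the 76 genes was 0.04 and 1 gene was called, where 12.2% of all genes were called and 5.47% were called higher. The gene was Rps7, a small subunit protein, with 369 to 425 CPM in the 4 libraries of 2 months and 491 to 595 CPM in the 4 of 12 months, without overlap (log2 fold change 0.40, SE 0.11, adjusted p = 0.0398). Between 2 and 6 months 0 of 76 were called in edgeR's test (2.87% of all genes, 1 of 76 at an unadjusted p under 0.05 beside 18.1%, median 0.05). Between 6 and 12 months 0 of 76 were called in edgeR's test (0.022% of all genes, 2 of 76 at an unadjusted p under 0.05 beside 12.1%, median -0.00). At the same times of day, 2 libraries per age of the time course gave a median of 0.30 from 2 to 12 months, with 70 genes higher. The libraries labelled WT of the genotype experiment gave 0.04, with 49 higher, and those labelled KO gave 0.10, with 48 higher. The median of the genotype experiment went from -0.13 without the 12-month L pair to 0.21 without the 12-month H pair, and it was also 0.21 without the 2-month L pair. The single call was lost without either 2-month or either 12-month pair, and 7 of 76 genes were called without the 6-month H pair, where 1829 of all 13569 genes were called.

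In the same libraries, ribosome biogenesis genes were mostly lower at 12 than at 2 months. The times of day were ZT13 and ZT17 at 2 months but ZT5 and ZT21 at 12 months, so age and time of day cannot be told apart here. Of 28, 17 were called lower and 0 higher, where 12.2% of all genes were called in either direction, with a median of -0.51. They included Nop2, a methyltransferase of the large rRNA, at -1.06 (SE 0.10, adjusted p = 0.000297), Gar1 at -1.13 and Rrp12 at -1.03. Of 13 mitochondrially encoded genes 3 rose, with a median of 0.65. The ribosomal protein genes themselves stayed near 0 there, and biogenesis genes near 0 in the time course, where the ribosomal protein genes rose. The difference between the experiments was not tested.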

How the data were processed

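Libraries of polyA RNA from mouse liver were processed by the authors with fastp, HISAT2 on the mm10 genome, and featureCounts, per the labels and the study's methods. Versions, annotation, strand and the handling of multi-mapped reads are not given in the sources used here. The authors deposited a table of counts per gene, as whole numbers, for the 18 time-course libraries, and per the labels a table of estimated counts, as whole numbers, for the 12 genotype libraries, in which the H and L means were equal gene by gene. The genotype table had been planned as raw counts; it went through the same count test. No column was left out.

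All genes passing filterByExpr were fitted with edgeR 4.0.16 (R 4.3.3, limma 3.58.1): TMM factors, the quasi-likelihood F-test, and Benjamini-Hochberg adjustment over 13361 (time course) or 13639 genes. Age was tested with ZT as a block, genotype with the pair as a block (a pair shares age and time of collection), and rhythms with cosine and sine terms of 24 h. The SE is the absolute log2 fold change divided by the square root of F. CPM of single genes use TMM-scaled library totals. Shares and the summed levels of cell markers use plain totals, and logs of single libraries add 0.5 CPM. Fitted fold changes are from edgeR. Each fit was tested on simulated data. The comparison of H with L was void: 0 of 13639 genes had an unadjusted p under 0.05.

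Alternatives were DESeq2 size factors, library totals, TMM factors without the 76 genes, no filter on low counts, DESeq2 1.42.0, no block, leaving out each time point or pair, the pairs at H or L alone, for rhythms a permutation test modelled on JTK over all 720 orders, and an unadjusted threshold. Chosen after seeing the data were the libraries at matched times of day, the libraries labelled WT alone, and the genes without copies. Transcript lengths and copies came from GENCODE M21 (BLAST), and promoter windows from RefSeq (GRCm38.p6). Tables were handled in Python 3.11.15 with pandas 2.3.3.

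The genes named are, of those called, all where 10 or fewer were called and otherwise the 5 with the largest log2 fold change in each direction that kept it at all 6 time points or pairs, or the 3 with the smallest p where none was called; for rhythms the 5 with the smallest p; and always Rplp0, Rplp1, Rplp2, Rpl5, Rpl11, Rpsa, Rps6, Rps27a, Rpl13a and the extremes in level. For other lists 3 stand in place of 5. Genes whose groups did not overlap between 6 and 12 months, those least like the others, and those with the GCG motifs were named after their values were seen. Some genes that these rules name are not reported here. The members and lists were chosen with earlier results of these data known.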

Additional observations from a re-analysis of the deposited data

Results flagged for a closer look

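In groups of 6 libraries, 2 of 160 sets of values of 31 named genes and of the summed share held a library far from the others by Dixon's test at 95%. Chance alone gives about 1 in 20 such groups. Rpl41 was low in the 2-month library at ZT9, at 352 CPM against 535 to 623 CPM in the other 5. Rps27a was high in the library labelled KO of 12 months H, at 193.7 CPM against 72.2 to 101 CPM.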

How the results depend on the processing

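The median difference of the 76 genes from 2 to 12 months was positive under every alternative run, going from 0.33 to 0.49 on the log2 scale when single time points were left out, with 22 (without ZT9) to 47 (without ZT13) genes called; library totals gave 62, DESeq2 57, no filter on low counts 49 and no block for time of day 45. Of the 46 genes called, 21 were called in every setting. From 6 to 12 months the count of 16 became 44 with library totals, 31 with DESeq2, 7 without the block, and 3 to 19 without single time points, and 3 of the 16 were called in every setting. From 2 to 6 months no filter gave 6 in place of 1. For rhythms, the counts at 2, 6 and 12 months and shared by the ages were 1, 4, 2 and 0 without a filter, 4, 6, 3 and 7 with DESeq2 (994, 969, 738 and 2756 of all 13361 genes), and 0 to 1 each without single time points; library totals gave 1 at 6 months, 0 at 12 months and 4 shared; the permutation test of the JTK kind gave 6, 7 and 0, and an unadjusted threshold 9, 13 and 7. The change of rhythm from 2 to 6 months gave 1 without a filter and 4 with DESeq2. Counts in this paragraph with no count over all genes beside them lack a background. They show only how the calls depend on the setting. Between genotypes the counts were 4 without a filter, 3 with DESeq2, 1 with the 3 pairs at L and 41 at an unadjusted threshold, and the genotype by age term gave 1 without a filter and 1 with DESeq2. The block for the pair changed no call there, with a median of -0.20 without the block. In the genotype experiment from 2 to 12 months, library totals gave 2 calls and a median of 0.11, DESeq2 2 calls, no filter 0, and leaving out single pairs 0 to 7 calls and medians from -0.13 to 0.21. Signs turned for genes near 0. Without ZT9, the age difference of Rplp0 was -0.0071 and of Rplp1 -0.046 (ranges without single time points -0.0071 to 0.10 and -0.046 to 0.081). The genotype difference of Rpl13a was 0.055 with library totals and 0.081 with the pairs at H, that of Rplp2 0.018 and 0.064, and that of Rps10 -0.21 with the pairs at L and -0.14 to 0.17 without single pairs. The cause of these shifts was not tested. H against L was not run under the alternatives because its test was void. With 1 library per condition and 5 to 32 reads on Rps10, and with unknown handling of reads shared with copies, single genes are less certain than the counts over the 76.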

Other observations

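Of 72 nuclear genes of oxidative phosphorylation tested in the time course, 21 fell from 2 to 6 months, among them Ndufs1 at -0.48, Uqcrc1 at -0.47 and Atp5a1 at -0.45, and 25 rose from 6 to 12 months, among them Cox7a1 at 1.62, Ndufa6 at 0.60 and Ndufb8 at 0.51. Of 76 mitochondrial ribosomal protein genes, 3 fell and 1 rose from 2 to 6 months and 11 rose from 6 to 12 months. Of all genes tested, 6.47% fell and 7.19% rose from 2 to 6 months, and 8.13% rose from 6 to 12 months. Ribosomal protein genes of the cytosol had positive medians in both steps, 0.14 and 0.25. The steps share the 6-month libraries, in which neutrophil markers summed to 20.6 to 139 CPM against 2.01 to 5.44 CPM at 2 months, and the part of these cells was not tested.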
